A study of Mus musculus with 18 samples.

Results

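The genes described here are 10 genes of the circadian clock: Clock and Npas2, Per1, Per2 and Per3, Cry1 and Cry2, Nr1d1, Rora and Dbp. They were taken by name, and every array probe set annotated to 1 of them and to no other gene was kept, which gave 30 probe sets of the 45101 on the array and 10 of the 18193 genes named there. Each probe set is a group of short probes for 1 transcript region. Rora had 9, Per3 had 6, Clock had 4, Per2 had 3, Npas2 and Dbp had 2 each, and the other 4 genes had 1 each. All 30 were tested with no filter on low values.

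The clock is a feedback loop of transcription found in most cells of the body, led in mammals by the suprachiasmatic nucleus of the hypothalamus. CLOCK, or its close relative NPAS2, pairs with BMAL1 (gene Arntl) and binds E-boxes in DNA to switch on the Per and Cry genes, whose proteins then enter the nucleus and repress that pair. In a second loop RORA activates and NR1D1 (REV-ERB alpha) represses Arntl, and DBP, itself driven by the loop, activates genes through D-boxes. The RNA of Per1, Per2, Per3, Nr1d1 and Dbp is known to swing strongly over the day, while that of Clock changes little in most tissues. No time of day for the taking of the brains is stated in the sources used here.

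Both groups came from transgenic mice of strain C57BL/6J X DBA/2J, with ages of 11 and 14 weeks that are not assigned to samples. All carried a bacterial artificial chromosome in which orexin gene sequence drives a flag-tagged rat poly(A)-binding protein and a green fluorescent protein. Orexin is a wake-promoting neuropeptide of the lateral hypothalamus, made from the gene Hcrt. The IP group (9 arrays) held messenger RNA recovered with anti-flag beads from homogenised brain fixed with formaldehyde, and the WB group (9 arrays) held whole brain total RNA. The question behind the comparison is which RNAs the precipitate holds at other levels than the whole brain does. The comparison sets both the cells and the way the RNA was recovered against each other, and these cannot be told apart. No precipitate from mice without the transgene was analysed here. In such bulk samples, fewer cells of a type and less RNA per cell also cannot be told apart. Nothing in the labels ties a sample to an animal of its own, and the p-values therefore cover the spread among samples, technical or not.

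The recognition sequences of the loop are shown for the members whose promoters held them, Per1, Cry1 and Per3. No relation between these sequences and the differences of IP and WB was tested. The RefSeq promoter table (GRCm38.p6, from 250 bases before to 50 after each start) held 12 promoters of 9 members. It held none of Per2, which could not be searched. The table was searched on both strands for the E-box CACGTG, present in 7.15% of all 32851 promoters, and the D-box TTATGTAA, present in 0.938%. No member held both, so no match of one overlapped a match of the other. Each match stands in capitals within 30 bases, written 5′ to 3′ on the strand of the gene.
Per1 E-box: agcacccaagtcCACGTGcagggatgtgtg
Cry1 E-box: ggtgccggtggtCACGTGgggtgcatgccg
Per3 D-box 1: ccgacccgcgcgTTATGTAAggtactcggg
Per3 D-box 2: acccgcccgcggTTATGTAAcccccgccgt
The Per1 stretch lies at chr11:69098771-69098800 on the plus strand, with its E-box 166 bases before the start, in 1 of 2 listed Per1 promoters. The Cry1 stretch lies at chr10:85185097-85185126 on the minus strand, 60 bases before the start. The Per3 stretches lie at chr4:151044853-151044882 and chr4:151044806-151044835 on the minus strand, 205 and 158 bases before the start. These letters were not found in the windows of Cry2, Clock, Npas2, Nr1d1, Dbp and Rora, and a match is a description of the letters only.

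Array-wide values that touch the results are given here in short. Hcrt itself differed by 0.21 (log2, IP minus WB, SE 0.28, limma, Benjamini-Hochberg adjusted p = 0.568), and Pabpc1, the mouse gene of the tagged protein, by -0.14 (adjusted p = 0.479). Of the markers of other cells, counted on the brightest probe set of each gene, 2 of 7 neuronal genes were higher in IP and 5 lower, 3 of 5 oligodendrocyte genes were higher and 1 lower, and 0 of 5 endothelial genes were higher and 4 lower. Over all genes 21.7% were higher and 21.7% lower on that rule. Among 6 measured markers of the suprachiasmatic nucleus 4 were higher and 1, Avp, was lower (-0.92, adjusted p = 0.0073), and the mean log2 level of the 6 was 7.81 to 8.68 in IP and 7.36 to 8.01 in WB. The 3′ probe set of Gapdh exceeded its 5′ probe set by 4.19 ± 0.69 in IP and 1.56 ± 0.15 in WB (log2, SD, n = 9 each), a measure of how far the labelled copies of this RNA reach toward its 5′ end. This was the widest separation that an exact permutation test over 48620 divisions of the arrays allows (two-sided p = 4.11e-05, adjusted p = 5.14e-05), while the same measure of Actb gave p = 0.242. The spiked hybridization controls were brighter in IP (14.01 ± 0.52 against 13.05 ± 0.18), most of all in IP replicates 2, 5, 6 and 8. The part of each of these measures in the results was not tested.

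Across the 30 clock gene probe sets, 20 (66.7%) were lower in IP and 4 (13.3%) were higher at an adjusted p under 0.05, and 6 did not pass. Over all 45037 probe sets tested, 30.8% were lower and 14.2% higher, or 45.0% in either direction. The median difference of these 30 probe sets was -0.99 (log2) against -0.23 over all probe sets. In 11 of the 30 every IP array lay below every WB array, and in 1 every IP array lay above, against 10.3% and 5.22% of all probe sets. Of these 11, 6 belong to Rora. The 20 lower probe sets include 9 of Rora, so they do not stand for 20 separate genes. Genes were also counted once each, on the probe set that was brightest on average over all 18 arrays, IP included. On that rule 4 genes were higher (Per2, Cry1, Npas2 and Dbp), 5 were lower (Per1, Per3, Cry2, Nr1d1 and Rora) and Clock did not pass. For Per2 the choice of probe set rests on the IP values, as given below. Over all 18193 genes 21.7% were higher and 21.7% lower on the same rule, 43.4% in all, and the median difference was -0.41 for the members and 0.00 for all genes. Only Per1, Cry2, Nr1d1 and Rora were lower on each of their probe sets. Of these, Per1, Cry2 and Nr1d1 have a single probe set, so only Rora, with 9, rests on several. The share of all genes that were lower on each of their probe sets was not counted.

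**Figure D1:**
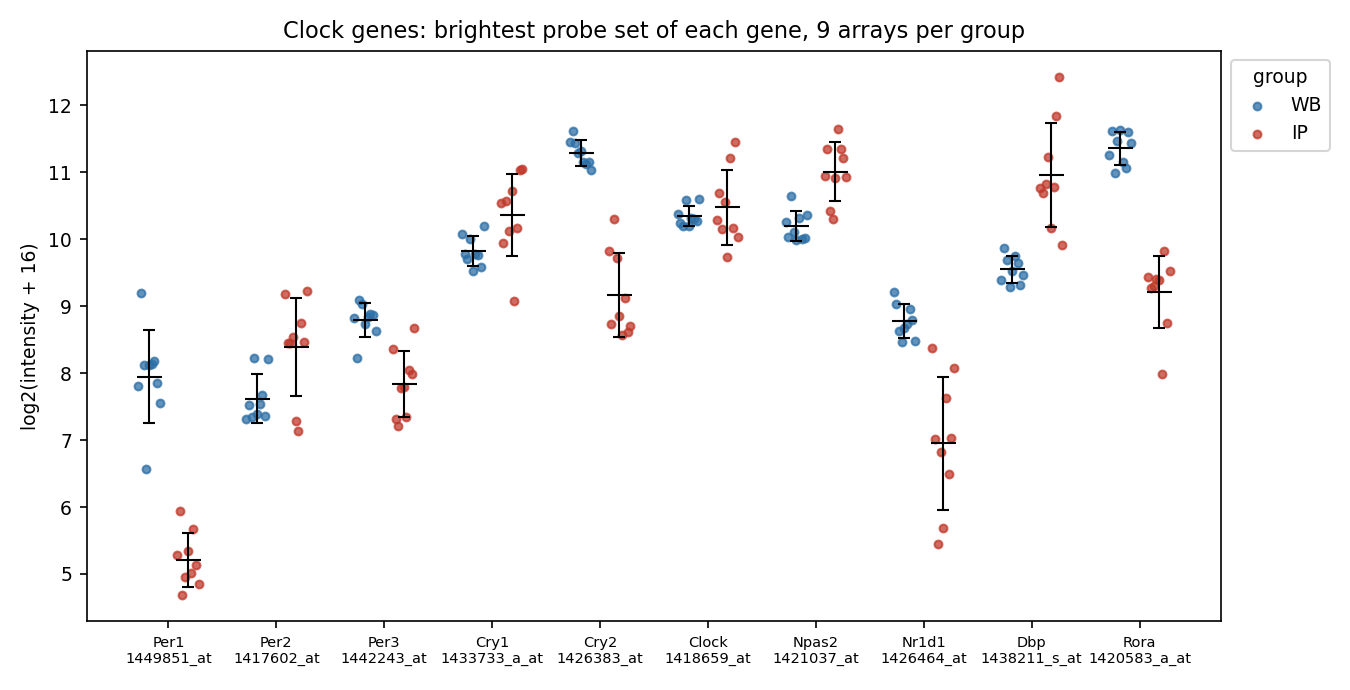
Log2(intensity + 16) of the brightest probe set of each of the 10 clock genes, 1 point per array, 9 WB arrays (blue) and 9 IP arrays (red); black lines are the mean and its SD. The groups are apart for Per1, Cry2, Nr1d1 and Rora (IP below) and for Dbp (IP above), and they overlap for Per2, Per3, Cry1, Clock and Npas2.

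The activators came first in the loop. Npas2, the relative of Clock that is prominent in forebrain, had intensities of 1242 at the lowest, 1958 at the median and 3187 at the highest in IP on its brightest probe set, 1421037_at. In WB the same values were 996, 1089 and 1585. Of the 9 IP arrays 7 lay above every WB array, and all 9 lay above the WB mean. The means were 11.01 ± 0.44 and 10.19 ± 0.22 (log2 of intensity + 16, SD, n = 9 each), a difference of 0.81 (SE 0.17, limma adjusted p = 0.000264) or 1.76-fold. The other probe set of Npas2, 1421036_at, ran from 76.8 to 708 in IP, a range that held all 9 WB arrays (184 to 397). It differed by -0.19 (SE 0.31, adjusted p = 0.659). When both probe sets were averaged, the difference of Npas2 was 0.31 and did not pass (adjusted p = 0.154).

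Clock, the founding member of the pair, had IP intensities of 837, 1239 and 2771 (lowest, median, highest) on its brightest probe set, 1418659_at, and WB intensities of 1157, 1249 and 1534. The medians were close and the IP arrays spread to both sides of WB, 3 of them above every WB array and 4 below. The difference was 0.14 (SE 0.19, adjusted p = 0.586), with a 95% confidence interval from -0.25 to 0.52. The mean over the 4 probe sets of Clock was lower in IP, by -0.67 (adjusted p = 0.000129). A second probe set, 1418660_at, designed on the same sequence record, gave 210, 284 and 366 in IP against 643, 836 and 1021 in WB. All IP arrays were below all WB arrays there, with means of 8.19 ± 0.25 and 9.73 ± 0.22 and a difference of -1.54 (SE 0.16, adjusted p = 2.3e-08), 2.91-fold. The third, 1435775_at, differed by -0.40 (adjusted p = 0.0816). The fourth, 1439314_at, differed by -0.88 (SE 0.32, adjusted p = 0.0300), a call that was lost when IP replicate 5, IP replicate 6, WB replicate 4 or WB replicate 7 was left out (differences from -0.99 to -0.64 over all 18 such fits). The call was also lost with quantile normalization (-0.46, adjusted p = 0.229), median centring (-0.45, adjusted p = 0.233) and array weights (-0.74, adjusted p = 0.0554). Without IP replicates 2, 5, 6 and 8 the difference was -0.32.

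Arntl encodes the partner of both activators and is no member of the set. Its brightest probe set differed by 0.21 (SE 0.21, adjusted p = 0.458) and its other one by -0.55 (adjusted p = 0.0503).

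Of the repressors, Per1, a Period gene that light induces quickly, was lower in IP. Its single probe set, 1449851_at, gave 9.62, 19.3 and 45.2 in IP and 78.4, 262 and 571 in WB (lowest, median, highest). No IP array reached the lowest WB array. On all 9 IP arrays it was not above the highest of the array's bacterial trp probe sets, which had intensities of 14.3 to 146 on the IP arrays and 7.43 to 122 on the WB arrays and serve here as a measure of background. The fitted difference was -2.74 (SE 0.30, limma adjusted p = 5.27e-08). Taking the higher of each array's background probe sets for the IP level, Per1 was at least 2.14-fold lower in IP as deposited. This bound was not worked out with the arrays scaled otherwise.

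Per2, the Period gene whose mutation disturbs the daily rhythm, gave different answers on its 3 probe sets. The brightest, 1417602_at, had 125, 338 and 581 in IP and 143, 168 and 284 in WB. Of the IP arrays 7 lay above every WB array, and the other 2, replicates 5 and 6, lay below every WB array. The means were 8.39 ± 0.73 and 7.62 ± 0.36, a difference of 0.77 (SE 0.28, adjusted p = 0.0269). Leaving out IP replicate 1 or IP replicate 9 ended this call, with differences from 0.66 to 0.92 and adjusted p up to 0.0570 over the 18 fits. A probe set of the same sequence record, 1417603_at, had 13.6, 21.9 and 148 in IP and 48.8, 168 and 226 in WB. It was lower in IP by -1.66 (SE 0.35, adjusted p = 0.000336) and was not above the background probe sets on 7 of the 9 IP arrays. The third, 1457350_at, had the same median in both groups, 212, and a difference of -0.03 (SE 0.33, adjusted p = 0.960). In WB alone 1457350_at was the brightest, with a mean log2 value of 7.74 against 7.62 for 1417602_at. Per2 was thus represented by 1417602_at, the probe set called higher, only because of its IP values. The mean over all 3 gave -0.31 (adjusted p = 0.191).

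Per3, the Period gene that is least needed for the rhythm itself, was lower in IP on 4 of 6 probe sets. The brightest, 1442243_at, gave 132, 206 and 391 in IP and 282, 443 and 531 in WB, with 7 of 9 IP arrays below every WB array. Its means were 7.83 ± 0.49 and 8.79 ± 0.26, a difference of -0.96 (SE 0.22, adjusted p = 0.000754). A second probe set, 1421087_at, ran from 36.1 to 427 in IP and from 278 to 507 in WB and differed by -1.31 (SE 0.31, adjusted p = 0.00122). The dimmer 1458176_at was not above background on any IP array. Its fitted difference was -1.52 (limma adjusted p = 0.000337), with a bound of at least 1.39-fold lower in the values as deposited. With quantile normalization the difference was -1.01 and with median centring -1.10, and no bound was worked out there. The fourth call, 1460662_at, differed by -1.02 (limma adjusted p = 0.0134). It was lost with quantile normalization, with median centring, with array weights and without IP replicates 2, 5, 6 and 8. This probe set was not above background on 8 of 9 IP arrays and on 3 of 9 WB arrays. The remaining 1441445_at and 1421086_at differed by -0.51 (adjusted p = 0.138) and -0.23 (adjusted p = 0.588).

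The Cryptochromes, the main repressors of the activator pair, moved apart. Cry2 had 365, 447 and 1243 in IP and 2081, 2491 and 3120 in WB on its single probe set, 1426383_at. Every IP array was below every WB array, with the highest IP array at 1243 and the lowest WB array at 2081. The means were 9.16 ± 0.63 and 11.29 ± 0.19, a difference of -2.13 (SE 0.20, adjusted p = 6.65e-09) or 4.36-fold. Cry1 had 526, 1478 and 2098 in IP and 724, 858 and 1155 in WB on its single probe set, 1433733_a_at. There 5 IP arrays lay above every WB array, and 1, replicate 6, lay below all of them. The means were 10.36 ± 0.62 and 9.82 ± 0.22, a difference of 0.53 (SE 0.21, adjusted p = 0.0375). That call is narrow: of the 18 fits without 1 array, 11 did not pass (those without IP replicates 1, 3, 5, 8 and 9, and WB replicates 2, 3, 5, 6, 7 and 8), and over the 18 the difference ranged from 0.45 to 0.69.

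Because an array's scale cancels in a difference taken within it, related genes were also compared inside each array. The log2 value of Cry1 minus that of Cry2 was 1.20 ± 0.82 in IP (0.28 to 2.41) and -1.46 ± 0.31 in WB (-1.84 to -0.84), with no overlap. Such a value depends on the probes as well as the RNA, so that only its difference between groups is read. The groups differed by 2.66, with an exact permutation p of 4e-05, the smallest this design allows, and an adjusted p of 0.000103 over the 5 pairs compared (two-sided). This ranged from 2.51 to 2.77 when single arrays were left out. Per2 against Per3 differed by 1.73 (adjusted exact p = 0.000137), with overlapping groups. Per1 was not above background on any IP array, so its contrasts were taken with every value raised to the array's background. Per1 against Per2 then differed by -1.92 (exact permutation p adjusted over 13 contrasts = 0.000602), with overlapping groups, and by -3.50 as deposited. Per1 against Per3 then differed by -0.20 (adjusted exact p = 0.568), so that the -1.78 found as deposited does not show a difference between these genes. Npas2 against Clock differed by 0.68 (adjusted exact p = 0.00502), with overlapping groups. The contrasts of Cry1 with Cry2, Per2 with Per3 and Npas2 with Clock passed with quantile normalization, with pseudocounts of 1 and 64 and without IP replicates 2, 5, 6 and 8. They rest on the brightest probe sets, and for Per2, Clock and Npas2 another probe set gave another difference. The probe set used for Per2 was the brightest over all arrays but not over the WB arrays alone. The p-values of its contrasts thus follow a choice made on IP values. The difference of IP and WB was -0.03 on Per2 1457350_at and -1.66 on 1417603_at, against -0.96 for Per3. The direction of Per2 against Per3 therefore depended on the probe set and is not read as a result. The pairs of genes were chosen after the values had been seen. The 13 contrasts with values raised to background were these pairs and the member pairs of probe sets that had passed without this step. The share of pairs of different genes on the array with such a contrast was not counted. Among pairs of probe sets of 1 gene, 54.0% passed by limma and 20.8% did not overlap between groups. Only the array's scale cancels here, and for dim probe sets only in part. The 3′ to 5′ ratio of Gapdh also differed between the groups, and its part in these contrasts was not tested.

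Of the nuclear receptors in the second loop, Nr1d1, a haem-binding repressor, had 27.7, 114 and 315 in IP and 335, 407 and 579 in WB. The groups did not overlap on this single probe set, 1426464_at. Its means were 6.95 ± 0.99 and 8.77 ± 0.26, and the difference was -1.82 (SE 0.33, adjusted p = 6.37e-05) or 3.53-fold. On 5 of the 9 IP arrays it was not above the background probe sets, so the true size there is less sure than the direction. In the reference gene table Nr1d1 overlaps Thra, Dbp overlaps Sphk2 and Per3 overlaps Uts2. The sources used here do not say whether these probe sets detect the neighbours.

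Rora, the activating receptor of the second loop and a gene needed for cerebellar Purkinje cells, was lower in IP on 9 of 9 probe sets. The brightest, 1420583_a_at, gave 237, 652 and 893 in IP and 2011, 2746 and 3145 in WB, with the groups far apart. Its means were 9.21 ± 0.54 and 11.35 ± 0.25, a difference of -2.15 (SE 0.19, adjusted p = 1.68e-09) or 4.42-fold. In 6 of the 9 probe sets the groups did not overlap. The largest difference was -2.69 (1441085_at, adjusted p = 1.42e-08), which had 48.8 at the IP median and 374 at the WB median but was not above background on 7 IP arrays. Next came 1458129_at at -2.54, 1436326_at at -2.30, 1424035_at at -1.94 and 1436325_at at -1.77, with adjusted p from 2.8e-09 to 3.12e-07. The smallest were 1455165_at at -0.65 (adjusted p = 0.00101), 1458145_at at -0.71 (0.0222) and 1424034_at at -0.89 (0.00116), whose groups overlapped. The calls of these 3 were lost with median centring, that of 1458145_at also with quantile normalization, and the other 6 were lower under all 4 array scalings tried. Of 3 measured Purkinje cell markers, 1 was lower in IP, none was higher and 2 did not pass, with a median difference of 0.07. Their mean log2 level was 10.61 to 11.17 in IP and 11.23 to 11.44 in WB. The part of these cells in the Rora values was not tested.

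Dbp, an output gene of the clock, showed the widest disagreement. Its brighter probe set, 1438211_s_at, gave 952, 1736 and 5487 in IP and 606, 724 and 918 in WB, and every IP array was above every WB array. The means were 10.96 ± 0.78 and 9.55 ± 0.20, a difference of 1.41 (SE 0.24, adjusted p = 3.32e-05) or 2.66-fold. The other, 1418174_at, gave 22.9, 90.3 and 334 in IP and 383, 426 and 547 in WB, and every IP array was below every WB array. Its means were 6.73 ± 0.97 and 8.81 ± 0.16, a difference of -2.08 (SE 0.32, adjusted p = 8.89e-06) or 4.24-fold, with 6 of 9 IP arrays not above the background probe sets. The mean of both was -0.34 (adjusted p = 0.182). By the maker's naming, an _s_at probe set can match more than 1 transcript, and the sources used here do not give the probe sequences of either. No direction for Dbp as a gene can therefore be read from these values.

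**Figure D2:**
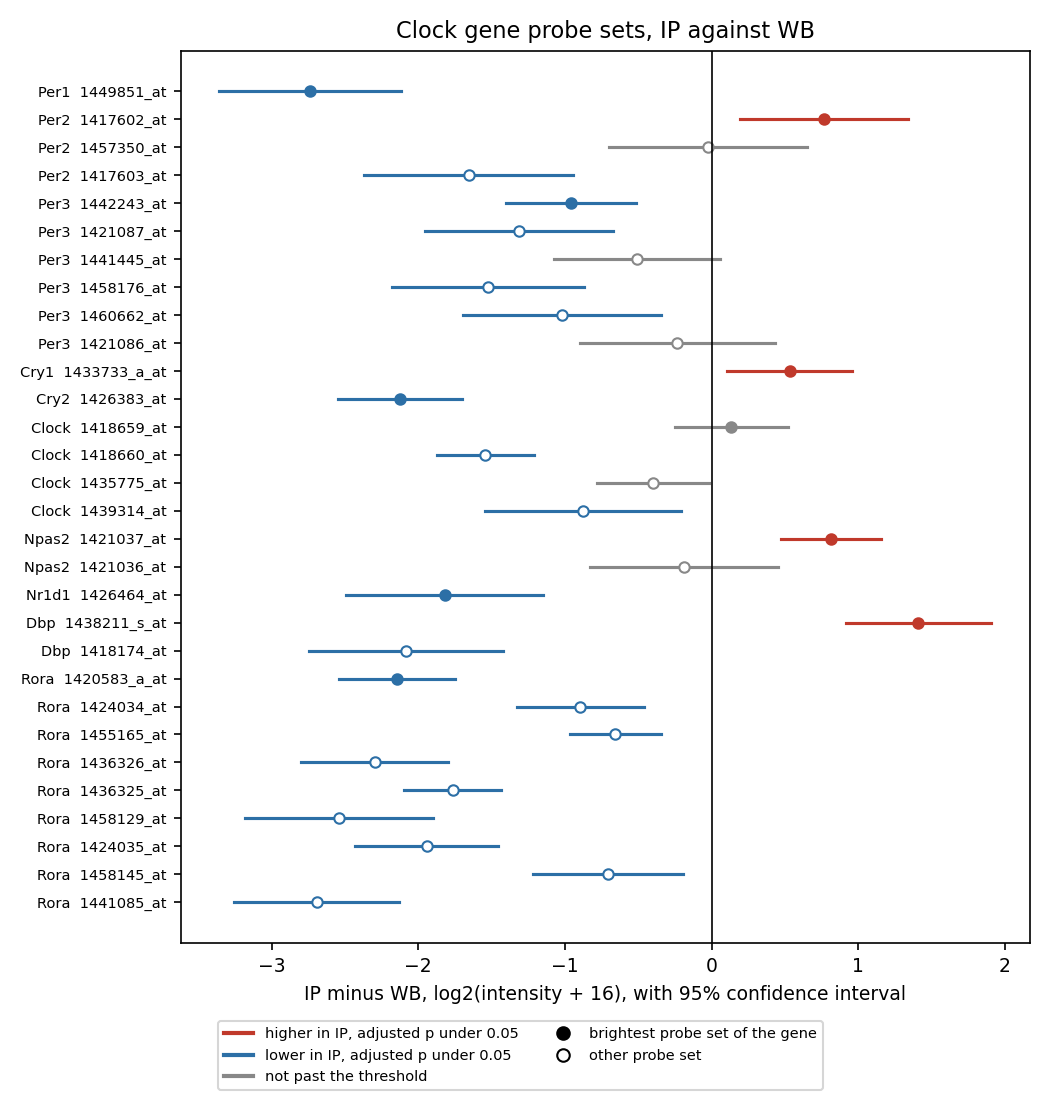
Difference between IP and WB in log2(intensity + 16) for each of the 30 clock gene probe sets, with its 95% confidence interval; filled points mark the brightest probe set of a gene, red higher in IP, blue lower, grey not past an adjusted p of 0.05. Dbp and Per2 have probe sets on both sides of 0, and the 9 of Rora lie between -2.69 and -0.65.

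How far 2 probe sets of a gene part was measured in each array as the log2 value of the brightest minus that of another. For Dbp this was 4.23 ± 1.27 in IP (2.31 to 5.79) and 0.74 ± 0.27 in WB (0.25 to 1.10), apart in all arrays. The difference of 3.49 (SE 0.41) had a limma adjusted p of 4.19e-07 over the 16752 such pairs on the array. As 1418174_at was not above background on 6 IP arrays, the size is uncertain, and with values raised to background it was 3.02, still with no overlap (exact permutation p adjusted over 13 contrasts = 0.000107). For the Per2 pair of 1 sequence record it was 2.42 (SE 0.39, adjusted p = 2.19e-05), or 1.22 with values raised to background (adjusted exact p = 0.00706), and for the Clock pair of 1 record 1.68 (SE 0.28, adjusted p = 3.68e-05), again with no overlap for Clock.
For the Npas2 pair of 1 record it was 1.00 (SE 0.36, adjusted p = 0.0251), lost without IP replicate 5, without IP replicates 2, 5, 6 and 8 and with quantile normalization. The Clock pair with 1439314_at gave 1.01 (adjusted p = 0.0438), which did not pass in 11 of the 18 fits without 1 array. In Rora the brightest probe set was relatively lower in IP than 1424034_at (-1.25, adjusted p = 0.00104), 1455165_at (-1.49, 7.05e-05) and 1458145_at (-1.44, 0.000811).
In all, 8 of 20 member pairs passed (40.0%), 5 with the brightest relatively higher in IP and 3 relatively lower, and 4 did not overlap between groups. Over all pairs on the array 54.0% passed, 43.2% with the brightest relatively higher and 10.7% relatively lower, and 20.8% did not overlap. The members' share was thus no larger than that of the array. Among the member pairs, only the 8 that had passed were raised to background. Their exact p-values are therefore no separate support. Of the 6 clock genes with more than 1 probe set, Dbp and Per2 had 1 called higher and another called lower, against 22.0% of 9010 such genes on the array. The 3′ to 5′ ratio of Gapdh also differed between the groups, as given above, and its part in these pairs was not tested.

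**Figure D3:**
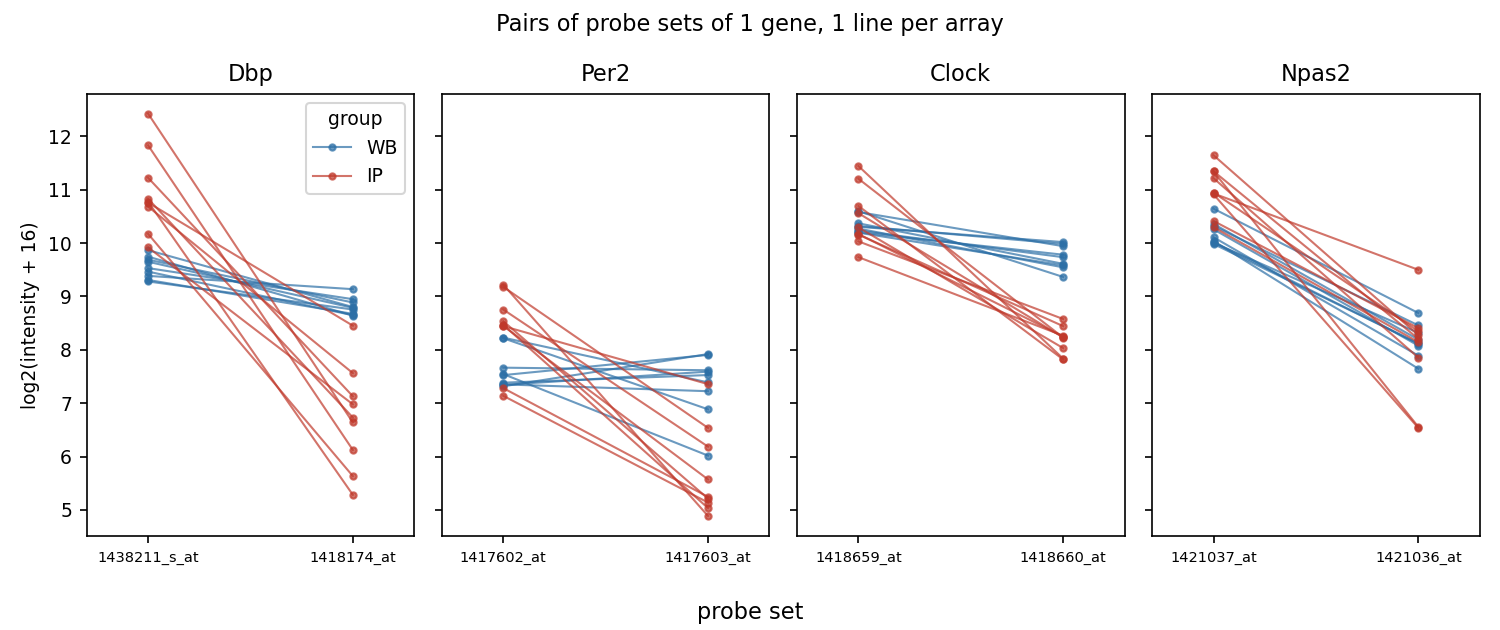
Log2(intensity + 16) of pairs of probe sets of Dbp, Per2, Clock and Npas2, with 1 line joining the values of each array (blue WB, red IP). In Dbp the lines fall by 2.31 to 5.79 in IP and by 0.25 to 1.10 in WB.

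The calls depended on the array scaling. Against the deposited scaling the median of all differences shifted by 0.34 with quantile normalization, by 0.42 with median centring and by -0.82 with scaling on the hybridization controls. The share of calls that were higher in IP was 31.6%, 52.3%, 60.6% and 4.72% in that order, starting with the deposited scaling. Under all 4 scalings 15 of the 30 clock gene probe sets were lower in IP, among them the brightest probe sets of Per1, Per3, Cry2, Nr1d1 and Rora. None of the 30 was higher under all 4. The shares of all 45037 probe sets lower or higher under all 4 were not counted, so these counts are not set against the array. Over all probe sets, 8322 were lower with median centring and 28637 with the hybridization controls. The 4 higher ones, of Per2, Cry1, Npas2 and Dbp, were higher under the deposited scaling, quantile normalization and median centring. With scaling on the hybridization controls they were -0.12, -0.42, -0.14 and 0.46, with limma adjusted p of 0.778, 0.207, 0.544 and 0.166. There 0 of the 30 clock gene probe sets were higher at an unadjusted p under 0.05. Clock on its brightest probe set was higher with median centring (0.56, adjusted p = 0.0204) and lower with the hybridization controls (-0.82, adjusted p = 0.00306).

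**Figure D4:**
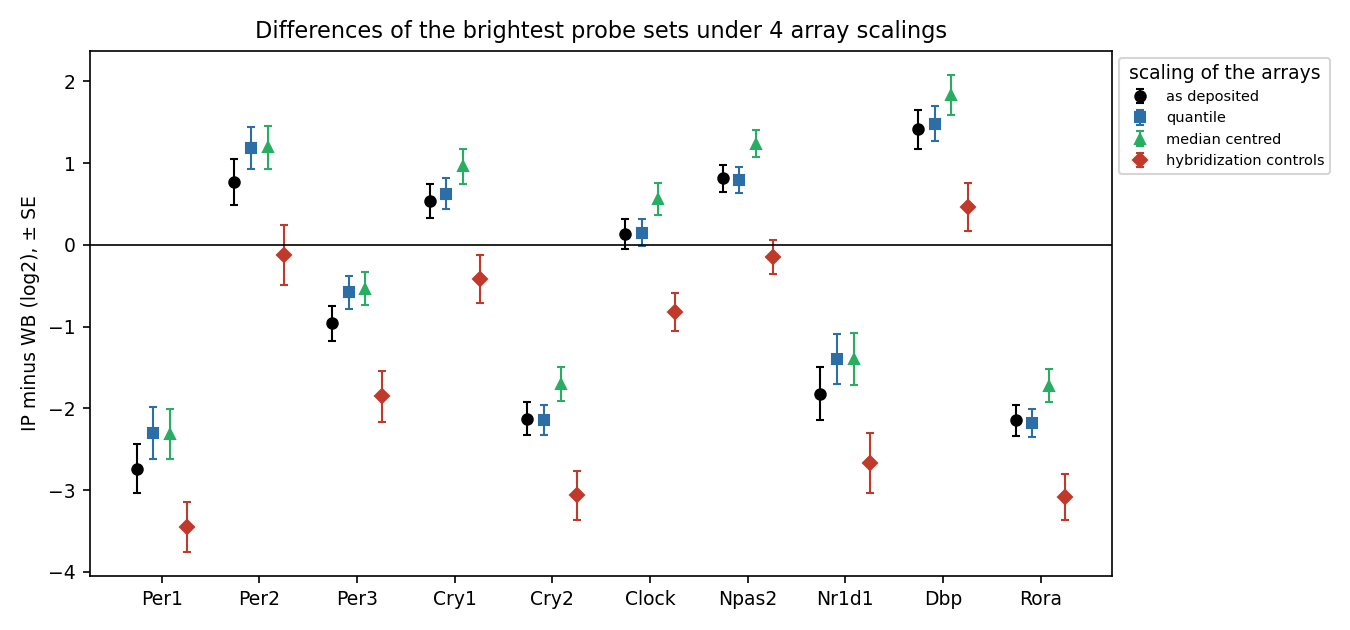
Difference between IP and WB (log2, with SE) of the brightest probe set of each clock gene under 4 scalings of the arrays. Per1, Per3, Cry2, Nr1d1 and Rora lie below 0 in all 4, whereas Per2, Cry1 and Npas2 change sign with the hybridization controls and Dbp drops to 0.46.

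The spread between arrays was wider in IP. In 27 of the 30 clock gene probe sets the SD of log2 values was larger in IP than in WB, with medians over all probe sets of 0.74 and 0.34. The share of all probe sets with the larger SD in IP was not counted, so the 27 are not read as a trait of the clock genes. The exceptions, chosen after the values were seen, were Per1 1449851_at (0.40 in IP, 0.69 in WB) and the Per3 probe sets 1460662_at and 1421086_at. Per1 was thus the member that varied most between WB arrays on its brightest probe set.

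Since several members swing together over the day, each was set against Dbp across the 9 arrays of a group, 18 relations in all on the brightest probe sets. For Dbp that was 1438211_s_at, which can match several transcripts. The other Dbp probe set, 1418174_at, entered only in the mean over probe sets and was not set against the members alone. In WB, Per1 followed Dbp (Pearson r = 0.82, exact permutation p = 0.0018, adjusted p = 0.0323; Spearman rho = 0.88, exact p = 0.00308, adjusted p = 0.0554). Without the 2 arrays farthest from the median of Dbp r was 0.70 (n = 7, exact p = 0.0853), so the relation rests in part on those arrays. It did not pass with quantile normalization (r = 0.79, adjusted exact p = 0.0824) or with the mean over probe sets (r = 0.74, adjusted exact p = 0.138). On WB replicate 4, the array with the lowest Per1 value in WB, Per1 was not above the background probe sets. The other 8 members in WB had r from -0.54 (Clock) to 0.34 (Cry2), and in IP r ran from -0.12 to 0.60 over 9 members, with Clock at the top (adjusted exact p = 0.739) and Per1 at 0.15. None of these passed, and none had an unadjusted p under 0.05. The difference between the r of Per1 in WB and in IP was not tested.

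Other genes of the clock pathway are given for comparison, on the brightest probe set of each. Of 19 measured, 2 were higher in IP, 4 were lower and 13 did not pass, with a median difference of 0.02. The higher 2 were kinase and ubiquitin ligase genes that act on PER proteins, Csnk1d (1.75, SE 0.15, adjusted p = 9.14e-10) and Fbxw11 (1.60, SE 0.17, adjusted p = 3.03e-08). Both were called on a probe set of the _x_at kind, which by the maker's naming can share probe sequence with other transcripts, and the mean over all their probe sets was -0.66 and -0.77. The lower 4 were Btrc, a relative of Fbxw11 (-0.91, adjusted p = 0.00016), Nfil3, a repressor at D-boxes (-0.82, adjusted p = 0.00998), Rorb, a relative of Rora (-0.77, adjusted p = 0.0365), and Gsk3b, a clock protein kinase (-0.53, adjusted p = 0.0145). Rorb did not pass in 7 of the 18 fits without 1 array (IP replicates 5 and 7, and WB replicates 1, 3, 5, 6 and 7), with quantile normalization, with median centring, with no intensity trend or without IP replicates 2, 5, 6 and 8. Nfil3 did not pass with quantile normalization or median centring, and Gsk3b did not pass with median centring. The difference of these genes from the members as a group was not tested.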

How the data were processed

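The deposited intensities were made by the authors with MAS5, per the submitters' processing notes, and are linear; the amplification started from 5 ng of RNA, per the labels' protocols. Further steps of the authors are not given in the sources used here. In the deposited values, the mean of each array without its highest and lowest 2% was 500. Probe sets were named from the platform annotation: 34945 of 45037 had 1 gene symbol, 932 several and 9160 none. The 64 control probe sets were left out of the tests. Here 16 was added to each intensity before log2, so folds understate changes of dim probe sets. Differences between IP and WB were tested with limma 3.58.1 (R 4.3.3; intensity trend, two-sided, Benjamini-Hochberg over 45037 probe sets, threshold 0.05). Single values were tested by exact permutation (scipy 1.17.1). Within-gene pairs used limma without the trend and, like the paralogue comparisons, the values raised to background and leaving out 4 IP arrays together, were added after the data were seen.

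The members and lists were chosen with earlier results of these data known. All probe sets of the 10 members are named. Of the other clock genes, those past the threshold are named up to 4 in each direction, by size of difference, and Arntl always. Hcrt and Pabpc1 are named as checks. Of the remaining marker lists, 3 of 6 astrocyte genes were higher and 2 lower, 1 of 5 microglial genes was higher and 3 lower, 1 of 5 orexin neuron genes was higher and 1 lower, and 3 of 4 red blood cell genes were lower. The procedure was tested on simulated data of 45037 probe sets: for log2 changes of 0.5, 1, 2 and 4 the numbers found out of 50 were 0, 12, 45 and 50, beside 4 false calls. Few simulated probe sets were changed, whereas 45.0% of those in the data were called. The adjusted threshold is therefore stricter in the simulation, and these numbers are not the detection rates in the data. The number of arrays limits the precision. Deviations of same-numbered IP and WB arrays correlated between -0.05 and 0.08, so the numbers were not taken as pairs, and no 2 arrays were identical.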

Additional observations from a re-analysis of the deposited data

Results flagged for a closer look

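One value of the clock genes stood apart from its group. WB replicate 1 had a log2 value of 8.20 on Per3 probe set 1421087_at, below the other 8 WB arrays, the nearest of which was at 8.69. The gap was 0.588 of the group's range, against a critical value of 0.493. Of 60 groups tested, 1 was past its critical value, and chance marks about 1 group in 20.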

How the results depend on the processing

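Several counts of calls depended on the scaling, and the cause was not tested. With scaling on the hybridization controls 0 member probe sets and 0 member genes were higher, 15 other clock genes were lower, and over all probe sets 1420 were higher and 28637 lower (6403 and 13854 in the main analysis). With quantile normalization 5 other clock genes were higher and 2 lower, and 10869 probe sets were higher in all; with median centring these were 8, 1 and 12802, with 8322 lower. Where the main value or the alternative passed, signs turned under the hybridization controls for Per2 (-0.12), Cry1 (-0.42), Clock (-0.82), Npas2 (-0.14), Arntl (-0.72), Nr1d2 (-0.92), Tef (-0.67), Hlf (-0.78), Fbxl21 (-0.73) and Nampt (-0.93); with neither past the threshold they turned for Arntl2 (-0.57) and Sirt1 (-0.58). With the mean over probe sets they turned for Per2 (-0.31), Clock (-0.67), Dbp (-0.34), Nr1d2 (-1.13), Tef (-0.83), Csnk1d (-0.66) and Fbxw11 (-0.77), and with neither past it for Arntl (-0.17) and Bhlhe41 (0.41), leaving 1 member gene higher, and 0 other clock genes higher and 9 lower. Among plain _at probe sets 2 of the members' probe sets were higher. Among probe sets above the median brightness, fewer of which were tested, 13 member probe sets, the furthest from 20 of any setting, and 8479 of all were lower. Without IP replicates 2, 5, 6 and 8 together, 4 other clock genes were higher. Leaving out each array in turn gave 2 to 4 higher and 19 to 21 lower member probe sets, 2 to 4 higher and 5 lower member genes (2 without IP replicate 1 or IP replicate 9), 2 to 3 higher and 3 to 4 lower other clock genes, and 5921 to 6507 higher and 13057 to 14031 lower of all. Pairs with the brightest probe set relatively higher numbered 3 with quantile normalization and 3 to 6 with 1 array left out (3 without IP replicate 5), and relatively lower 3 to 4. The count of WB relations with Dbp was 0 with quantile normalization, without the 2 farthest arrays and with the mean over probe sets, against 1. A replicate block gave 4 higher and 20 lower member probe sets and 6313 and 13707 of all; of the single results it ended only the call of the Clock pair with 1439314_at.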
